A study of Homo sapiens with 2 samples.

Results

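The mRNAs described here encode cytoplasmic actin and proteins that coat, contract or crosslink actin filaments: ACTB, ACTG1, TPM1, TPM3, TPM4, CALD1, MYH9, ACTN1 and FLNA. They were taken by gene symbol from a table of RNA segments recovered with Flag-RBM47 by HITS-CLIP, in which RNA bound to a protein is fixed to it with UV light, recovered through the Flag tag and sequenced as short tags. All 9 genes had at least 1 cluster (a run of overlapping tags), and together they held 140 of 233546 clusters and were 9 of 7712 genes with a cluster. The cells were MDA231-BrM2a, a brain metastatic derivative of the human breast cancer line MDA-MB-231, as a non-clonal population in which 1 ng/ml doxycycline for 3 days induced Flag-tagged RBM47. Both samples, replicate 1 and replicate 2, carried the transgene and received doxycycline, and no cells without Flag-RBM47 and no input RNA were analysed here. Tag numbers therefore hold the abundance of an mRNA and its recovery with the protein together, and these cannot be told apart. Because the protein was overexpressed from an inducible transgene, the tags describe that state of the cells.

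Actin filaments are polymers of actin that give a cell its shape and drive its movement. Tropomyosins (TPM1, TPM3, TPM4) lie along the filament and govern which other proteins reach it, caldesmon (CALD1) binds actin, tropomyosin and myosin and restrains contraction, non-muscle myosin heavy chain IIA (MYH9) is the motor that pulls on filaments, and alpha-actinin-1 (ACTN1) and filamin A (FLNA) join filaments into bundles and networks. RBM47 is an RNA-binding protein with RNA recognition motifs, also known as a partner of the cytidine deaminase APOBEC1 in RNA editing.

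The replicates differed in depth. The replicate columns summed to 999047 tags in replicate 1 and 3489697 in replicate 2, so the values below are also given as counts per 1000000 of these sums (CPM). Member clusters held 612 tags in replicate 1, with a median of 2 per cluster (range 1 to 54), and 2382 in replicate 2, with a median of 8 (range 3 to 224). The table lists a cluster only from 5 tags and with at least 1 tag in each replicate, so a region without a cluster may still have had a few tags. As markers of this line, the mesenchymal-type transcripts VIM, CD44, AXL, CAV1 and MSN all had clusters, with 1571 (MSN) to 8404 (CD44) tags. Of the epithelial and hormone receptor markers, CDH1, KRT19, ESR1 and PGR had no cluster, ERBB2 had a single cluster of 5 tags and EPCAM one of 11.

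The 9 genes held 2959 tags, 0.0666% of the 4444851 in the table, and 2457 of them (83.0%) lay in clusters of at least 10 tags, the minimum used below unless all clusters are named. CALD1 and ACTB were tagged most, TPM4 and ACTN1 followed, and ACTG1, FLNA, MYH9 and TPM3 were lower. TPM1 had no cluster that reached the minimum. In all, 6 of the 9 genes had more than 100 tags, beside 39.9% of the 7712 genes. By replicate 2 alone 5 genes passed 100 and by replicate 1 alone 2, and FLNA, with 103 tags, lay just above the line while MYH9, with 85, lay below it. The median over the 8 genes with such a cluster was 251 tags, against 127 over 5600 genes, and 5 members lay above that median. The same 5 (ACTB, ACTG1, TPM4, CALD1 and ACTN1) were above the median when the tags of all clusters outside introns were divided by the length of the canonical mRNA.

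**Figure D1:**
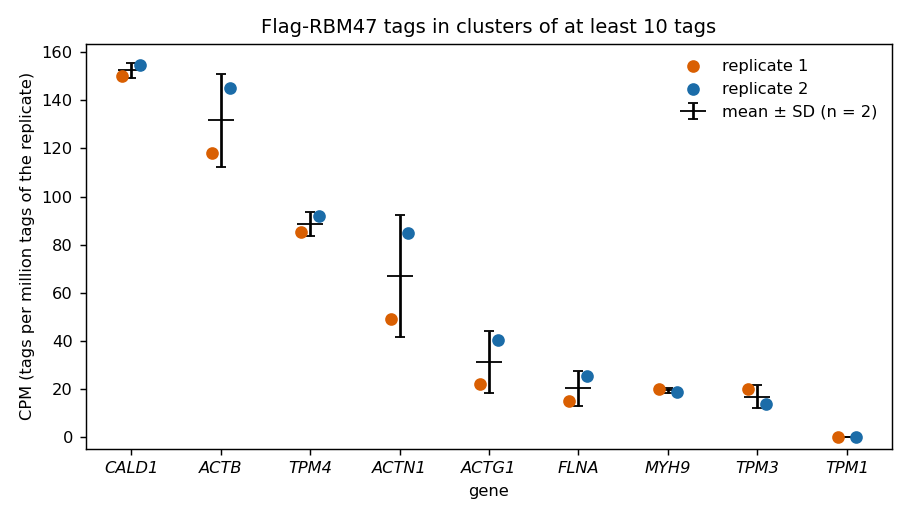
CPM (tags per 1000000 tags of the replicate) in clusters of at least 10 tags, for each of the 9 genes on the horizontal axis. Points are the 2 replicates and bars the mean ± SD; both replicates place CALD1, ACTB, TPM4 and ACTN1 above the other genes, and TPM1 at 0.

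Among the actins, ACTB (beta-actin, Entrez gene 60, chromosome 7, minus strand) had 118 tags in replicate 1 and 507 in replicate 2, or 118 and 145 CPM, a mean of 132 ± 19.2 (SD, n = 2). ACTG1 (gamma-actin, gene 71, chromosome 17, minus strand) had 22 and 141 tags, or 22.0 and 40.4 CPM, a mean of 31.2 ± 13.0 (SD, n = 2). Both values of ACTB lay above both values of ACTG1. Per kb of mRNA, over all clusters, the order was the same. ACTB had 344 tags outside introns per kb and ACTG1 had 103, against a median of 37.5 over 5272 genes.

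The tropomyosins differed among themselves by more than the replicate spread. TPM4 (gene 7171, chromosome 19, plus strand) had 85 and 321 tags, or 85.1 and 92.0 CPM, a mean of 88.5 ± 4.88 (SD, n = 2). TPM3 (gene 7170, chromosome 1, minus strand) had 20 and 47 tags, or 20.02 and 13.5 CPM, a mean of 16.7 ± 4.63 (SD, n = 2). In TPM1 (gene 7168, chromosome 15, plus strand) all clusters together held 4 tags in replicate 1 and 10 in replicate 2. TPM2, the remaining gene of the family, had no cluster. TPM4 therefore stood above TPM3 in both replicates, and TPM3 above TPM1.

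Of the proteins that regulate or pull on filaments, CALD1 (gene 800, chromosome 7, plus strand) had 150 and 540 tags, which were 150 and 155 CPM, a mean of 152 ± 3.25 (SD, n = 2) and the highest of the 9 genes. MYH9 (gene 4627, chromosome 22, minus strand) had 20 and 65 tags, or 20.02 and 18.6 CPM, a mean of 19.3 ± 0.985 (SD, n = 2). CALD1 exceeded MYH9 in both replicates. Per kb of mRNA, over all clusters, CALD1 had 131 tags outside introns and MYH9, whose mRNA is longer, had 17.7.

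Of the crosslinkers, ACTN1 (gene 87, chromosome 14, minus strand) had 49 and 296 tags, or 49.0 and 84.8 CPM, a mean of 66.9 ± 25.3 (SD, n = 2). FLNA (gene 2316, chromosome X, minus strand) had 15 and 88 tags, or 15.01 and 25.2 CPM, a mean of 20.1 ± 7.21 (SD, n = 2). ACTN1 was above FLNA in both replicates. In clusters of at least 10 tags, replicate values of neighbours by CPM did not overlap from CALD1 through ACTB, TPM4 and ACTN1 to ACTG1. Those of ACTG1 and FLNA, of FLNA and MYH9, and of MYH9 and TPM3 overlapped, so these neighbours were not set apart by the replicates. Both ACTG1 values still lay above both values of MYH9 and of TPM3. TPM1, without such a cluster, lay below TPM3 in both replicates. Beside the 5600 genes with a cluster of at least 10 tags, CALD1 ranked 984, ACTB 1076, TPM4 1525, ACTN1 1676, ACTG1 2515, FLNA 3029, MYH9 3259 and TPM3 3557 by tags.

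Dividing by the summed length of a gene's clusters gives how densely the recovered segments themselves were tagged, and on that scale the order changed. ACTB had 94.95 ± 13.9 CPM per kb of clusters (SD, n = 2), TPM4 81.7 ± 4.51, TPM3 65.2 ± 18.0 and CALD1 60.4 ± 1.29. ACTN1 followed with 49.0 ± 18.5, MYH9 with 42.6 ± 2.17, ACTG1 with 33.3 ± 13.9 and FLNA with 21.1 ± 7.55. The replicate values of ACTB and TPM4 did not overlap, nor did those of TPM4 and TPM3, and each later pair of neighbours overlapped. The replicate values of TPM3 (77.9 and 52.4) lay around those of CALD1 (59.5 and 61.3), over 257 nt of clusters in TPM3 against 2523 nt in CALD1.

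No member was divided unevenly between the replicates beyond the threshold. Clusters were tested with an exact binomial test against the share of all tags, with Benjamini-Hochberg adjustment over all clusters. Of 140 member clusters 0 were called, beside 0.0111% of 233546 clusters. An unadjusted p under 0.05 was found in 1 member cluster (0.714%), the largest of ACTN1, beside 3.04% of all clusters. Over genes, tested on the tags of all their clusters, 0 of 9 were called, beside 1.52% of 7712. Of the 9, 2 (22.2%) had an unadjusted p under 0.05, beside 10.5% of all genes. Over all clusters, replicate 1 supplied 16.9% of the ACTN1 tags (95% Wilson interval 13.7 to 20.8), where 22.0% was the share over all genes. The exact binomial test for ACTN1 gave p = 0.0112 and adjusted p = 0.240. Replicate 1 supplied 15.2% of the ACTG1 tags in all clusters (10.9 to 20.9), with an exact binomial p = 0.0201 and adjusted p = 0.313. A beta-binomial test, which allows for spread beyond counting, called 0 members at either level, with 1 cluster and 2 genes under 0.05 before adjustment. In 38 of the 140 clusters replicate 1 had a single tag, so a difference between the replicates in such a cluster was not detectable at this depth. Only 65 of the 140 held at least 10 tags. With at least 1 tag in each replicate, no split of a smaller cluster could pass the adjusted threshold. For those smaller clusters the count of 0 was therefore fixed in advance.

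Of the 140 member clusters, 65 (46.4%) held at least 10 tags, beside 41.6% of the 170251 clusters that the table assigned to a gene, and 3 (2.14%) held at least 100 tags, beside 2.2%. By size, the clusters were thus close to those of other genes, with a median of 9 tags against 8 and a median length of 87 nt against 82 nt. By place the shares of member clusters and of all clusters in genes were further apart. Coding sequence (CDS) was the label of 46 member clusters (32.9%, against 13.4% of all clusters in genes), the 3'UTR alone of 44 (31.4% against 22.7%) and intron alone of 30 (21.4% against 56.2%). FLNA alone supplied 22 of the 46 CDS clusters, and CALD1 supplied 21 of the 30 in introns alone. The shares describe the chosen genes and were not tested. Of 9 members 4 had an intron cluster, beside 54.2% of all genes.

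**Figure D2:**
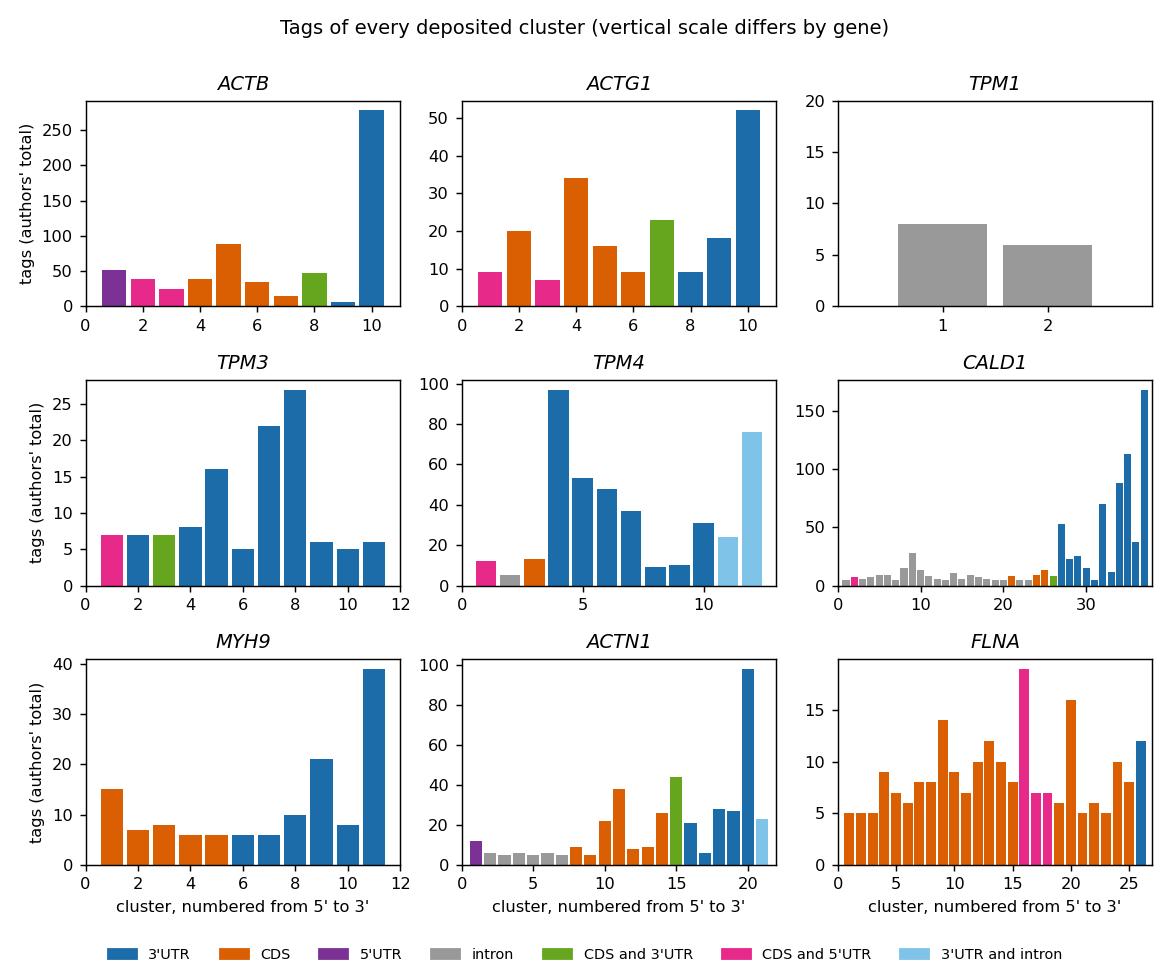
Tags (the authors' total) of each of the 140 clusters, one panel per gene, with clusters numbered from 5' to 3' along the transcript and coloured by location label; the vertical scale differs by panel. The tallest bars of ACTB, ACTG1, CALD1, MYH9 and ACTN1 are in the 3'UTR near the right edge, FLNA has low bars across its coding sequence, and TPM1 has 2 intron bars.

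The 3'UTR held 63.0% of the tags of the 9 genes together (66.2% in replicate 1 and 62.3% in replicate 2), and the genes fell on both sides of that value. TPM3 had 100% of its tags there, CALD1 88.3% (87.3% and 88.7% in the replicates), MYH9 82.4% (85% and 81.5%) and TPM4 68.8% (68.2% and 69.5%). In TPM4 a further 24.9% lay in clusters labelled both 3'UTR and intron. ACTN1 had 51.3% (55.1% and 51.4%), ACTB 45.1% (45.8% and 44.2%) and ACTG1 42.9% (40.9% and 43.3%), and FLNA had 11.7% (6.67% and 12.5%). In both replicates TPM3, CALD1, MYH9 and TPM4 lay above ACTN1, ACTB and ACTG1, and FLNA was lowest. The median over the 6 genes with more than 100 tags was 48.2%, against 67.5% over 3074 such genes. With tags pooled instead, the 3'UTR held 47.2% over the 5600 genes with a cluster of at least 10 tags, below the 63.0% of the members. The direction of the difference thus changed between the pooled tags and the median gene with more than 100 tags. These comparisons also covered different genes, as the median left out TPM3 (100%) and MYH9 (82.4%). Which of these changes turned the direction was not tested.

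Coding sequence was the other main place. FLNA had 69.9% of its tags there (73.3% and 69.3% in the replicates), and 48 of 3074 genes (1.56%) had a CDS share as high. ACTG1 had 42.9% (50% and 41.8%), a share reached by 6.25% of the genes, ACTB had 28.7% (32.2% and 29.0%), reached by 12.6%, and ACTN1 had 25.4% (18.4% and 26.01%), reached by 14.96%. TPM4 had 3.24% and CALD1 1.90%, and TPM3 had no CDS cluster of at least 10 tags. The median CDS share was 27.0% over the 6 members and 5.65% over the 3074 genes. Some labels name several regions, and the largest FLNA cluster, labelled CDS and 5'UTR, lay 5378 nt from the 3' end of its last cluster, with CDS clusters on either side of it.

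**Figure D3:**
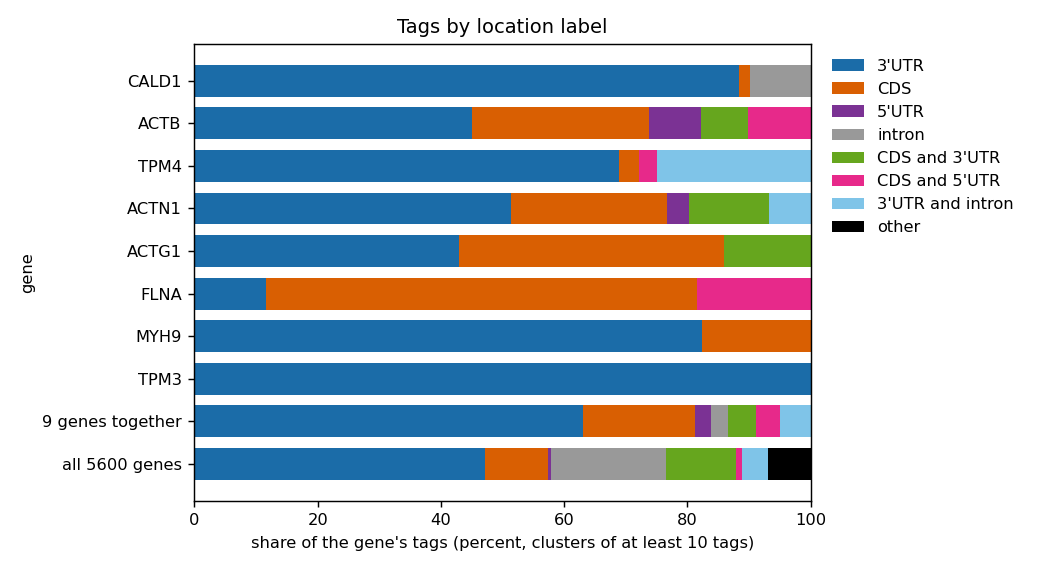
Share of tags (percent of the gene's tags in clusters of at least 10 tags) by location label, one bar per gene, with the 9 genes together and all 5600 genes below; TPM1 has no such cluster. The dark blue 3'UTR part runs from 11.7% in FLNA to 100% in TPM3, and the orange CDS part is widest in FLNA at 69.9%.

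A 3'UTR and a coding sequence differ in length, so densities were compared too, over all clusters and per kb of the canonical transcript. CALD1 had 255 tags per kb of 3'UTR and 12.6 per kb of CDS, a ratio of 20.2 (22.1 and 20.1 in the replicates), and 5.16% of 3508 genes had a ratio as high. The canonical CDS used for CALD1 was 2379 nt long. Which CALD1 transcript the cells made was not known, and a shorter CDS would lower this ratio. TPM4 had a ratio of 9.83 (13.2 and 9.46), MYH9 of 9.06 (9.61 and 8.86) and ACTN1 of 5.75 (6.43 and 5.87). These 4 genes lay above the median of 3.51 in both replicates. The CDS of TPM4 had a single cluster, with 2 tags in replicate 1 and 11 in replicate 2, so its ratio is uncertain. That ratio also left out the 100 TPM4 tags labelled both 3'UTR and intron. ACTB, with 471 tags per kb of 3'UTR and 157 per kb of CDS, had a ratio of 2.99 (2.80 and 2.88), and ACTG1, with 109 and 70.2 per kb, one of 1.56 in each replicate. FLNA had 37.4 tags per kb of 3'UTR and 22.5 per kb of CDS, a ratio of 1.66 that was 0.687 in replicate 1 and 1.88 in replicate 2. The 3'UTR of FLNA is 321 nt long and its CDS 7941 nt, and the replicates did not settle which was the denser. The coding sequences of ACTB and ACTG1 are similar, so the counting could have divided or dropped reads between them, and their CDS values are uncertain.

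**Figure D4:**
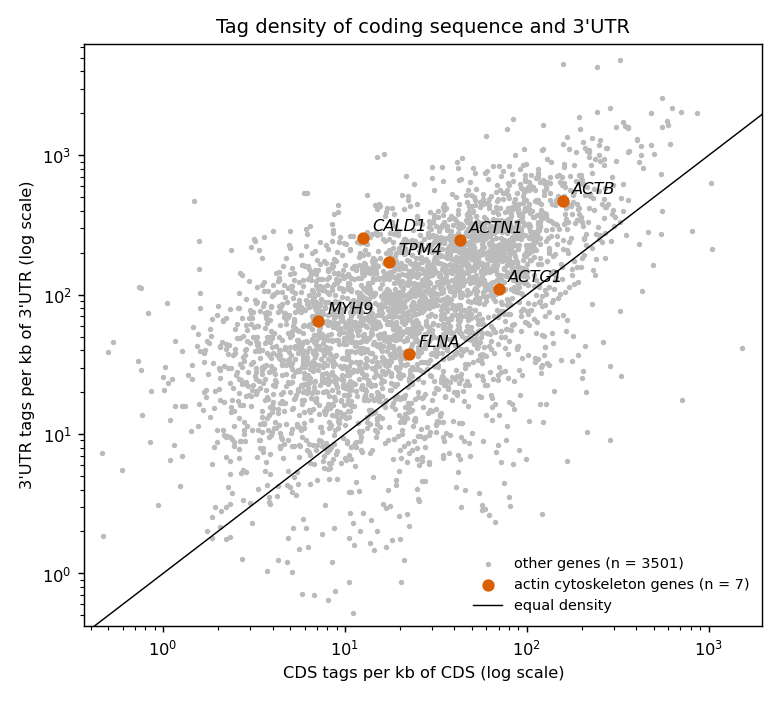
Tags per kb of 3'UTR (vertical, log scale) against tags per kb of CDS (horizontal, log scale) for genes with both, from all clusters of both replicates; grey points are other genes, orange points the 7 members with both, and the line marks equal density. CALD1, TPM4, MYH9 and ACTN1 lie farthest above the line, at ratios of 5.75 to 20.2, and ACTG1 and FLNA nearest to it, at 1.56 and 1.66.

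Coordinates are given as the table lists them, on build hg18. The largest member cluster lay in the ACTB 3'UTR at chr7:5533400-5533741 on the minus strand, where replicate 1 had 54 tags and replicate 2 had 224, 278 in the authors' total. It held 45.1% of the gene's tags and was the most 3' of the 10 ACTB clusters. Further upstream, an ACTB coding cluster at chr7:5534439-5534735 had 18 and 72 tags, and a 5'UTR cluster at chr7:5536676-5536761 had 7 and 45. ACTB clusters thus ran from the 5'UTR to the 3'UTR, and 9 of 10 reached 10 tags. The largest ACTG1 cluster was also its most 3', at chr17:77091679-77091996 on the minus strand, with 6 and 46 tags.

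CALD1 was the only other member with clusters of at least 100 tags. The larger, at chr7:134305252-134305878 on the plus strand, had 36 and 132 tags over 626 nt, and the other, further upstream at chr7:134304932-134305139, had 26 and 87. These belong to a chain of 11 clusters that covered 93.0% of a stretch of 2166 nt of the 3'UTR and held 609 of the gene's 829 tags over all clusters (73.5%, or 73.0 ± 1.63% as the replicate mean, SD, n = 2). When clusters closer than 50 nt were joined, the largest CALD1 region held 406 tags and the largest ACTB region 346.

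The other chains were shorter. In TPM4, 9 clusters within 1338 nt at the 3' end held 385 of 415 tags (92.8%), and the largest of them, at chr19:16073298-16073467, was the most 5' of the chain, with 16 tags in replicate 1 and 85 in replicate 2. In TPM3, 9 clusters within 1328 nt held 102 of 116 tags (87.9%), led by one at chr1:152395989-152396052 with 9 and 19 tags. The canonical TPM3 mRNA has a 3'UTR of 6127 nt, and the table does not name the transcript to which the tagged stretch belongs. In MYH9, 6 clusters within 938 nt held 90 of 132 tags (68.2%), led by the last at chr22:35007269-35007452 with 10 and 29 tags. In ACTN1, 7 clusters within 885 nt held 247 of 409 tags (60.4%), led by chr14:68410689-68410986 with 12 and 88 tags. FLNA had no such chain: its single 3'UTR cluster held 12 of 224 tags (5.36%).

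FLNA instead had 22 CDS clusters of 5 to 16 tags each, with 36 tags in replicate 1 and 145 in replicate 2, 179 in the authors' total and 79.9% of its tags over all clusters. Its largest cluster, at chrX:153235470-153235590 on the minus strand, had 3 and 16 tags and held 18.4% of the tags in clusters of at least 10, the smallest such share of the 8 genes with one. Only 46.0% of FLNA tags lay in clusters of at least 10, against 99.0% in ACTB and 96.6% in TPM4. MYH9, the other gene with a long coding sequence, had 5 CDS clusters of 6 to 15 tags (11 and 31 tags in the replicates).

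Intron clusters were few and concerned mostly CALD1. That gene had 21 clusters in introns alone, with 42 tags in replicate 1 and 133 in replicate 2, 175 in the authors' total and 21.1% of its tags. Of these clusters, 18 lay within 7494 nt, at chr7:134269382-134276876, and held 159 of the 175 intron tags, while all 21 spanned 115043 nt. The largest, at chr7:134270473-134270555, had 5 and 23 tags. Over 1499 genes with at least 10 intron clusters, the densest window of 10000 nt held a median of 46.2% of a gene's intron clusters, and 13.5% of those genes reached the 85.7% of CALD1. ACTN1 had 6 intron clusters of 5 or 6 tags (9 and 24 tags in the replicates) and TPM4 a single one of 5 tags. Both TPM1 clusters were intronic, at chr15:61145939-61146030 with 2 and 6 tags and at chr15:61147820-61147879 with 2 and 4. No tags were listed in exons of TPM1, where a cluster under 5 tags would not appear.

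**Figure D5:**
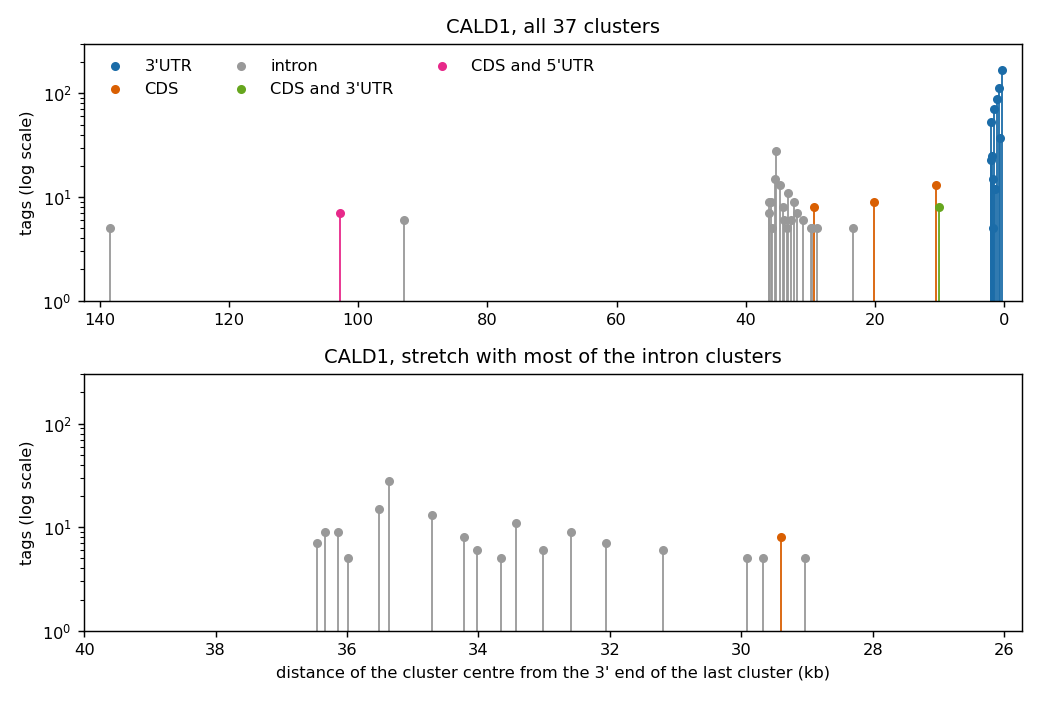
Tags (log scale) of CALD1 clusters by the distance of their centre from the 3' end of the last cluster in kb, for all 37 clusters (top) and for the stretch that holds 18 of the 21 intron clusters (bottom). Points and stems are single clusters coloured by location label; the 3'UTR clusters stand at the right edge of the upper panel, up to 168 tags, and the intron clusters reach 28.

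No other cluster of the same strand lay within 10000 nt of the clusters of any member. Paralogues were tagged unequally. ACTN4, the other widely expressed alpha-actinin, had 208 tags in clusters of at least 10, whereas FLNC, the muscle filamin, had 12. The muscle actins ACTA1, ACTA2 and ACTG2 and the non-muscle myosin heavy chains MYH10 and MYH14 had no cluster. The actin pseudogene ACTG1P4, on chromosome 1, carried 5 clusters with 32 tags, all labelled intron.

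The canonical 3'UTRs of the members ranged in uridine content from 20.9% in FLNA to 37.2% in TPM1, around a median of 33.1% over 5272 genes. ACTB (33.997%), CALD1 (33.6%), ACTG1 (32.5%) and ACTN1 (31.5%) lay near the median. TPM3 (29.1%), TPM4 (27.8%) and MYH9 (25.3%) were lower. No relation between uridine content and tags was tested over these 9 genes.

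A list of 83 further genes of actin filaments and their regulation gave the setting. Of these, 63 had a cluster, 55 had one of at least 10 tags, and 39 had more than 100 tags, which is 61.9% of the 63 genes with a cluster, beside 39.9% of the 7712 genes with a cluster, and 46.99% of the whole list. Over the 55 genes with a cluster of at least 10 tags the median was 426 tags, against 251 over the 8 members with one. With genes without such a cluster counted as 0 it was 76, against 163 for the 9 members, so the order of the medians turned with the genes counted. The highest were the spectrin SPTBN1, which ties actin to the membrane, with 1129 and 4100 tags in the replicates, the scaffold IQGAP1 with 519 and 1947, and the pointed-end capping protein TMOD3 with 416 and 1552. VCL (vinculin, of cell adhesions) followed with 371 and 1252, MSN (moesin, a membrane linker) with 316 and 1255, the Arp2/3 complex genes ACTR3 with 299 and 1169 and ACTR2 with 257 and 1011, LIMA1 with 255 and 951, ENAH with 240 and 848, and the GTPase RAC1 with 195 and 858. All 10 exceeded CALD1 in both replicates, and 17 genes of the list had more tags than CALD1. These counts did not allow for length. Per kb of mRNA, over all clusters outside introns, ENAH had 88.8 tags, below the 131 of CALD1. The other named genes of the list stayed above CALD1. ACTB, with 344 per kb, lay above TMOD3, VCL, ACTR3, ACTR2, LIMA1 and ENAH and below SPTBN1, IQGAP1, MSN and RAC1.

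As in the members, the place of the tags varied within the list. In 31 of the 39 genes with more than 100 tags the 3'UTR alone held more than 50% of the tags, among them RAC1 with 98.2% and ENAH with 97.5%. Such a share was common: of all 3074 genes with more than 100 tags, 61.6% reached the 51.3% of ACTN1, and the median was 67.5%. SPTBN1 had 0.768% in the 3'UTR, with 38.6% in CDS and 58.9% in clusters labelled CDS and 3'UTR. IQGAP1 had 32.8% in the 3'UTR and 31.4% in CDS. No cluster was listed for 20 genes of the list, among them CNN1, MYL6, MYL9, TAGLN and CAPZB. No gene of the list was divided unevenly between the replicates after adjustment.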

How the data were processed

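Per the labels, 2 replicate libraries of Flag-RBM47 HITS-CLIP tags were made from 1 group. The authors deposited unique tag counts per cluster for each replicate and a total, with gene symbol, location label and coordinates. The submitters' processing notes name Novoalign and build hg18, without a version or role; whether coordinates count from 0 or 1 is not given in the sources used here. On the GRCh37 annotation all 9 genes had the listed chromosome and strand but 0 of 140 clusters overlapped their gene, so no sequence was read by coordinate. The authors' total was used; the replicate columns exceeded it in 18 member clusters, by 35 tags in all. 0 columns of values of other samples were left out.

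Genes were summed over clusters of at least 10 tags, except that the tests of gene splits and the values per kb of mRNA, 3'UTR or CDS used all clusters. Rates are per 1000000 tags of the replicate column. Replicate splits were tested with a two-sided exact binomial test, adjusted (Benjamini-Hochberg, threshold 0.05) over all clusters or genes. The test over clusters was tested on simulated data, with changes planted only in clusters of at least 100 tags. Smaller clusters, which most member clusters are, were not covered by it. Intervals are 95% Wilson and, like all counts, cover counting error only. Nothing in the labels says that the replicates were separate cultures, so a difference between these libraries may be technical. The exact binomial p-values compare a split with the overall share under counting error alone. Lengths and uridine content came by gene name from canonical GENCODE transcripts, matched for 95.25% of 5600 genes and used from 100 nt of 3'UTR. Python 3.11.15, pandas 2.3.3, numpy 2.4.6, scipy 1.17.1 and matplotlib 3.10.9 were used.

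The members, the list of 83 genes and the tests were chosen with earlier results of these data known. Named were all 9 members, each with its largest cluster, every cluster of at least 100 tags or otherwise its largest intron cluster, and the 10 listed genes with most tags; the other clusters, paralogues and genes without a cluster were named after their values were seen. Alternatives were all clusters, a minimum of 30 tags, merged clusters, wider location labels, summed replicate columns, each replicate alone and other split tests. The values of 1 gene are not reported here.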

Additional observations from a re-analysis of the deposited data

How the results depend on the processing

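With all clusters, the 9 genes held 666 tags per 1000000 (CPM), 55.5% of them in the 3'UTR and 7.67% in introns, with 36.7 CPM per kb of clusters, 24.0% as the median share of the largest cluster, and 140 clusters. With a minimum of 30 tags these values were 394 CPM, 72.0%, 0% (no intron cluster), 68.2, 51.3% and 25 clusters. At the minimum of 10 they were 553, 63.0%, 2.73%, 56.4, 30.4% and 65. The order of the members by CPM also changed with all clusters, where FLNA lay above ACTG1. Counting every label that includes the region gave 72.7% for the 3'UTR and 7.73% for introns, and joining clusters closer than 50 nt left 42. Leaving out each replicate in turn gave ranges of 479 to 575 CPM, 62.3% to 66.2% in the 3'UTR, 2.54% to 3.34% in introns, 25.9% to 31.2% in the largest cluster, 51.8 to 56.9 CPM per kb, 12 to 56 clusters and 23 to 39 of the other actin genes over 100 tags, the lowest counts of clusters and genes coming from replicate 1 alone. Over all clusters the beta-binomial test called 10 splits against 26 by the binomial test, and over all genes 6 against 117, or 23 with tags of clusters of at least 10; no member was called under any of them. Some alternatives were chosen after seeing the data: tags per kb of mRNA, which left 5 members above the median, and an expected share taken from clusters of at least 100 tags, which called 18. No paired analysis was possible because both replicates belong to the same group. Clusters with 1 or 2 tags in replicate 1, 80 of the 140, limit any comparison of replicates at single clusters.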
